A study of Mus musculus with 73 samples.

Results

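Znrf3 cKO adrenals of female (XX) mice at 52 weeks were compared with control adrenals of the same sex and age. The comparison holds the 8 libraries that the labels give as XX and 52 weeks, 4 of genotype KO and 4 of genotype WT, out of 73 libraries in the series, and every gene of the deposited table was examined in them. In Znrf3 cKO mice, both Znrf3 alleles were floxed around the exons that encode the RING domain, and the SF1-Cre high transgene, in which Cre is driven by regulatory regions of Sf1 (Nr5a1), removed these exons in steroidogenic cells. Control mice were littermates given as wild type. Both genotypes were on the C57Bl/6 background, and an mTmG reporter was part of the breeding scheme. Whether a control mouse carried the Cre transgene or a floxed allele is not given in the sources used here, so an effect of the transgene and one of the deletion cannot be told apart. Messenger RNA was sequenced from whole adrenals, in which fewer cells of a type and less RNA per cell cannot be told apart. The sources do not say whether the 4 libraries of a group stand for 4 mice, and the p-values cover the spread among the libraries alone, part of which could be technical. The labels do not say whether a given gland held a tumour, and the glands are therefore called Znrf3 cKO adrenals here.

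ZNRF3 is a ubiquitin ligase of the cell membrane that removes Frizzled receptors, and so limits the response of a cell to Wnt ligands. In the adrenal cortex, Wnt signalling is strongest under the capsule, in the zona glomerulosa, which makes aldosterone, and the deeper zona fasciculata makes glucocorticoids under the control of adrenocorticotropic hormone. The chromaffin cells of the medulla derive from the neural crest and make catecholamines.

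Values are RPKM, read counts scaled by transcript length and library size. The number of reads behind each library, recovered from the steps between low values, was 30050000 to 50810000 in Znrf3 cKO adrenals and 30730000 to 45950000 in controls. A single read on a kilobase of transcript was worth 0.0204 to 0.0347 RPKM in Znrf3 cKO libraries and 0.0222 to 0.0332 RPKM in control libraries. Markers of steroidogenic cells (Star, Cyp11a1, Cyp21a1, Hsd3b1) were at 866 RPKM or more in every Znrf3 cKO library and at 655 RPKM or more in every control library. Znrf3 cKO library 2 stood apart from the others of its genotype. On the first principal component, which held 52.04% of the variance, it lay at 6.12, against 27.0 to 42.2 for the other Znrf3 cKO libraries and -32.7 to -19.2 for the controls. The 14 genes of an adipocyte list summed to 1894 RPKM in it, against 175.8 to 482.3 RPKM in the other Znrf3 cKO libraries. Control library 2 had a sum of 1522 RPKM for the same list, against 323.2 to 492.9 RPKM in the other controls. The effect of such tissue on the results below was not tested beyond leaving each library out in turn.

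Of 19146 genes that averaged 0.5 RPKM or more in either group, 3462 (18.1%) differed between Znrf3 cKO and control adrenals at an adjusted p under 0.05 (limma on log2(RPKM + 1), Benjamini-Hochberg adjustment over all genes tested, 2-sided). Of these, 1678 (8.76% of the genes tested) were higher and 1784 (9.32%) lower in Znrf3 cKO adrenals. Large differences were mostly falls, since 68 of the higher and 332 of the lower genes differed by at least 1 on the log2 scale. The groups did not overlap in 4556 of the genes tested (23.8%), among them 3148 of the 3462 called. A lack of overlap was also a condition for naming the largest rises and falls, so it is no further support for those genes. Fold changes below are on this log2(RPKM + 1) scale, Znrf3 cKO minus control, with the standard error from the fit, and understate the change of genes with low values. The count depended on the libraries. With 1 library left out it ran from 1536 (without control library 1) to 6839 (without Znrf3 cKO library 2). It was 1904, 1834, 2218, 1909, 2259 and 1746 without Znrf3 cKO libraries 1, 3 and 4 and control libraries 2, 3 and 4. The same call was made in all 8 of these fits for 1378 genes, 516 higher and 862 lower. Calls named below held in all 8 unless a library is named, and values of 4 libraries are always in the order 1 to 4. The sum of all RPKM was lower in Znrf3 cKO libraries (540000 to 566000) than in controls (587900 to 623600). Rescaling every library to the same sum raised the median log2 fold change of all genes by 0.10 and turned the split into 3710 higher and 1245 lower genes (74.9% higher, against 48.5% as deposited). A small rise or a small fall of a single gene therefore rests on the deposited scaling.

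**Figure D1:**
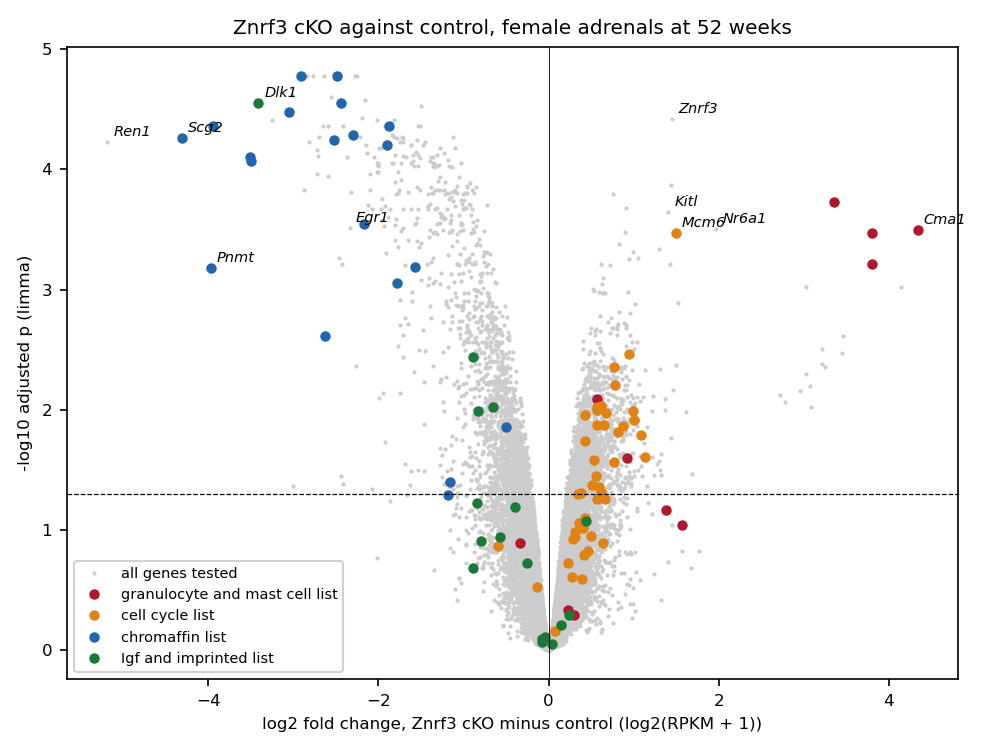
Each point is 1 of 19146 genes, with the log2 fold change (Znrf3 cKO minus control) on the x axis and -log10 of the adjusted p on the y axis, and the dashed line marks an adjusted p of 0.05. Chromaffin genes (blue) and Dlk1 lie far to the left, mast cell genes (red) far to the right, and cell cycle genes (orange) above 0 with smaller changes.

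Znrf3 itself was higher in Znrf3 cKO adrenals. It was at 9.82, 12.7, 11.5 and 10.9 RPKM in Znrf3 cKO libraries and at 3.41, 3.56, 3.54 and 3.25 RPKM in controls (log2 fold change 1.45 ± 0.08 SE, adjusted p = 3.8e-05). The groups did not overlap. These values sum over the whole gene, including exons outside the deleted part, so they do not show the deletion itself. Nr5a1, which encodes SF1, a nuclear receptor that drives steroidogenic genes, was at 367, 467, 284 and 348 RPKM in Znrf3 cKO libraries and at 248, 203, 270 and 232 RPKM in controls (0.61 ± 0.15, adjusted p = 0.028, a call lost without Znrf3 cKO library 1 or 4 or control library 1, 2 or 4, with adjusted p between 0.0558 and 0.0753). Its neighbour Nr6a1, a nuclear receptor known from germ cells, rose to 5.80, 11.9, 6.19 and 5.93 RPKM in Znrf3 cKO adrenals, against 1.08, 1.04, 1.16 and 1.02 RPKM in controls (1.97 ± 0.19, adjusted p = 0.00031), and the lowest Znrf3 cKO value was far above the highest control value. In the mm10 annotation Nr5a1 lies on the minus strand at chr2:38692656-38714542 and Nr6a1 at chr2:38723370-38927688 on the same strand. The genes on either side did not pass the test (Psmb7, a proteasome subunit, 0.41, adjusted p = 0.11, but 0.045 on rescaling to the same sum and 0.011 without Znrf3 cKO library 2, and Olfml2a -0.00, adjusted p = 0.99). The Cre transgene is built from regulatory regions of Nr5a1, and its part in these values was not tested.

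Cell cycle genes were higher in Znrf3 cKO adrenals. Of a list of 44 such genes, all of them tested, 26 rose and 0 fell, with a median log2 fold change of 0.56, against 8.76% of all genes called higher and a median of 0.01 over all genes. With 1 library left out the count of rises ran from 14 (without control library 1) to 30 (without Znrf3 cKO library 4), and 14 rises held in every such fit. The summed level of the list was 173, 219.7, 149.9 and 119.4 RPKM in Znrf3 cKO libraries and 87.1, 98.8, 85.1 and 105.8 RPKM in controls, so that Znrf3 cKO library 4 was nearest to the controls without overlapping them. For this list and the others given here with 0 calls in a direction, at most 3 genes had an unadjusted p under 0.05 in that direction, and limma with precision weights on recovered reads called 0. Control library 1, whose removal cost the most calls, did not have an extreme sum.

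The clearest members were the subunits of the MCM helicase, the ring that opens DNA at replication origins. Mcm6 rose most, to 11.0, 16.03, 11.6 and 9.18 RPKM in Znrf3 cKO adrenals, against 3.08, 3.89, 3.28 and 3.91 RPKM in controls (1.49 ± 0.15, adjusted p = 0.00034). Mcm5 was at 5.02, 7.47, 5.43 and 4.43 RPKM in Znrf3 cKO libraries and at 1.90, 2.61, 2.36 and 2.66 RPKM in controls (0.95 ± 0.14, adjusted p = 0.0034). Neither gene overlapped between the groups. Mcm2, Mcm3, Mcm4 and Mcm7 rose by 0.59 to 0.65 on the log2 scale, with adjusted p between 0.0086 and 0.0135. Among 34 tested genes of the KEGG set for DNA replication, 13 rose (38.2%, against 8.76% of all genes) and 0 fell. The rises included the replication protein A subunit Rpa1 (0.59 ± 0.07, adjusted p = 0.0010). Mki67, the gene of the proliferation antigen Ki67, was at 5.198, 6.12, 5.46 and 2.70 RPKM in Znrf3 cKO libraries and at 1.77, 2.17, 1.71 and 1.87 RPKM in controls (0.99 ± 0.19, adjusted p = 0.010). Top2a, a topoisomerase of dividing cells, had 3.799, 4.38, 3.93 and 1.85 RPKM in Znrf3 cKO libraries, against 0.884, 1.39, 0.973 and 1.51 RPKM in controls (1.01 ± 0.20, adjusted p = 0.012). For both genes Znrf3 cKO library 4 was the lowest of its group and close to the controls. Wee1, a kinase that holds back entry into mitosis, was the steadiest rise of the group, at 3.08, 3.05, 2.97 and 2.90 RPKM in Znrf3 cKO adrenals and 1.305, 1.44, 1.41 and 1.302 RPKM in controls (0.76 ± 0.07, adjusted p = 0.00016). Some genes used to mark the cycle did not pass the test. These were Cdk1 (0.66 ± 0.21, adjusted p = 0.056), Ccna2 (0.50 ± 0.20, adjusted p = 0.11), Pcna (0.40 ± 0.15, adjusted p = 0.096) and the inhibitor Cdkn1a (0.56 ± 0.21, adjusted p = 0.089). Of these, Cdk1, Pcna and Cdkn1a passed it on rescaling to the same sum (adjusted p = 0.033, 0.033 and 0.038). Cdkn1c, an imprinted inhibitor of cyclin-dependent kinases, fell to 51.8, 66.7, 47.4 and 72.9 RPKM in Znrf3 cKO adrenals, against 103, 114, 116 and 106 RPKM in controls (-0.89 ± 0.13, adjusted p = 0.0036).

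E2F factors bind the promoters of many replication genes. Sequences before the start sites of the cell cycle genes were therefore searched on both strands for 2 spellings of the E2F site, TTTGGCGC and TTTCCCGC, in the 250 bases before each start (RefSeq, GRCm38.p6). Of 26 cell cycle genes called higher, 22 had a promoter in the table, and 2 of these (9.09%) held a match, against 407 of all 27025 promoters (1.51%) and 298 of the 11017 promoters of tested genes (2.70%). The TCF/LEF motif CTTTGAT, through which beta-catenin acts, and the NR5A1 motif CAAGGTCA were each in 0 of the 22. They were in 3.72% and 1.51% of all promoters and in 2.65% and 1.29% of those of tested genes. Shares this low cannot be told from 0 in 22 promoters. The genes with an E2F match were Mcm6 and Mcm5, which had the largest and the second largest rise among the MCM genes. The windows are shown because they place the match, given in capitals, relative to the start site.
Mcm6 (chr1:128359734-128359763, minus strand): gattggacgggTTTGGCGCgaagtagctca
Mcm5 (chr8:75109349-75109378, plus strand): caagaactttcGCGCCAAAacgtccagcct
Mcm6 held a second match farther out, which is not shown. The Mcm6 match in the window reads in the direction of transcription and ends 39 bases before the start site, and the Mcm5 match is on the opposite strand and ends 141 bases before it. A match of letters is a description of the sequence and not a measure of binding.

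**Figure D2:**
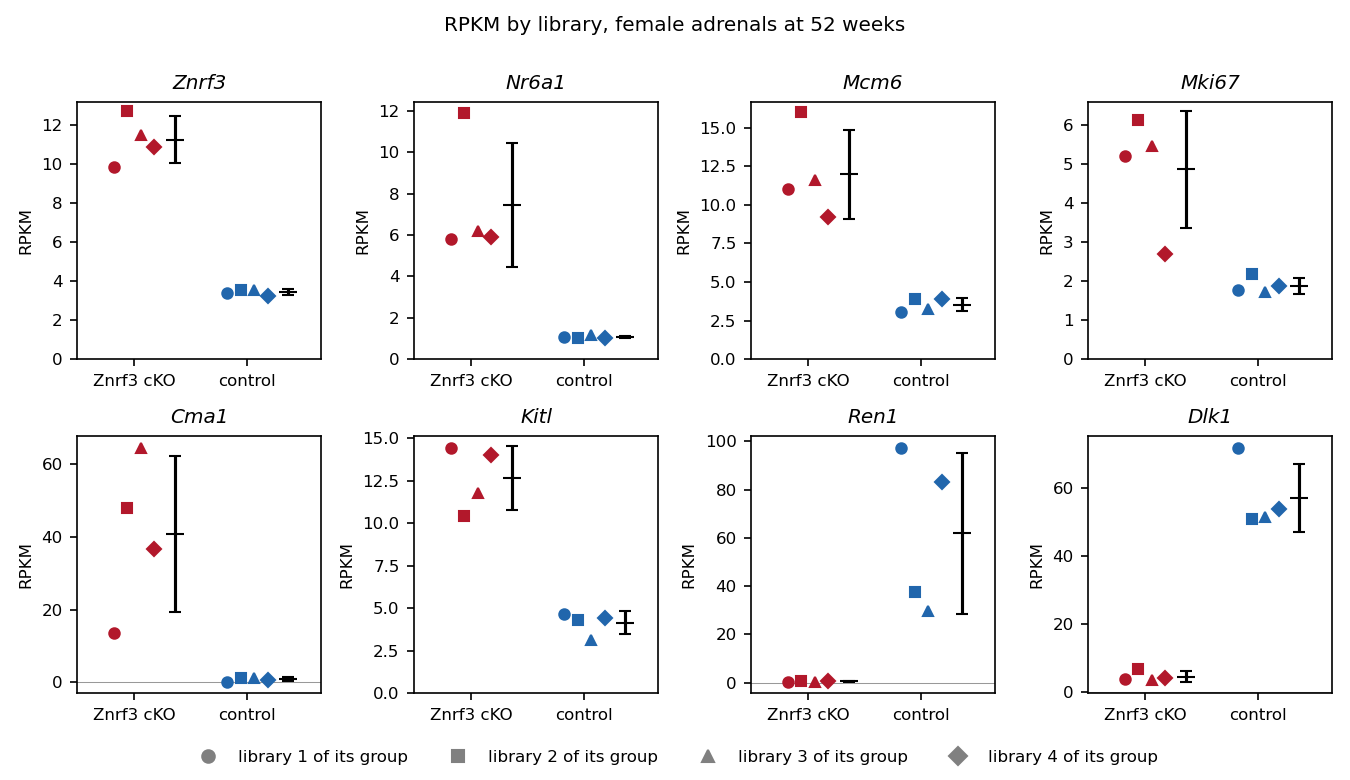
RPKM of 8 genes in each library, with Znrf3 cKO libraries (red) left of controls (blue), a marker shape for each library number and the mean with its SD (n = 4) in black beside them. In all 8 genes the groups do not overlap, which was a condition for naming each of them except Mki67, and Cma1 varies most among Znrf3 cKO libraries.

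Genes of steroid synthesis held calls in both directions, and the main enzymes were not among them. Of 24 genes of steroid production, 4 rose (16.7%) and 3 fell (12.5%), against 8.76% and 9.32% of all genes, with a median log2 fold change of 0.21. With 1 library left out the rises ran from 0 (without control library 1 or 2) to 9 (without Znrf3 cKO library 2). Star, which carries cholesterol into mitochondria (0.18 ± 0.17, adjusted p = 0.46), Cyp11a1, the first enzyme of the pathway (0.44 ± 0.18, adjusted p = 0.11), Cyp21a1 (-0.24 ± 0.14, adjusted p = 0.23), Hsd3b1 (0.37 ± 0.18, adjusted p = 0.18) and Cyp11b1, the last step to corticosterone (0.61 ± 0.28, adjusted p = 0.15), did not pass the test. Without Znrf3 cKO library 2, Cyp11a1, Hsd3b1 and Cyp11b1 passed it (adjusted p = 0.026, 0.012 and 0.014). None of 20 genes of cholesterol synthesis was called in either direction, with 2 genes at an unadjusted p under 0.05 and 0 called by limma with precision weights on recovered reads.

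Some cortical genes did change. Srd5a2, a steroid 5-alpha-reductase that makes dihydrotestosterone, rose to 81.5, 39.6, 102 and 132 RPKM in Znrf3 cKO adrenals, against 34.2, 27.4, 25.7 and 30.3 RPKM in controls (1.44 ± 0.31, adjusted p = 0.017). Cyp11b2, aldosterone synthase, was at 570, 257, 769 and 511 RPKM in Znrf3 cKO libraries and at 145, 173, 308 and 195 RPKM in controls (1.31 ± 0.34, adjusted p = 0.032). Its groups overlapped, because Znrf3 cKO library 2 lay below control library 3, and the call was lost without any 1 of Znrf3 cKO libraries 1, 3 and 4 and control libraries 1, 2 and 4 (adjusted p between 0.069 and 0.0907). Dab2, the other marker of the zona glomerulosa, had a log2 fold change of 0.17 (adjusted p = 0.38). Mrap, the partner that brings the adrenocorticotropic hormone receptor to the cell surface, fell to 161, 132, 102 and 116 RPKM in Znrf3 cKO adrenals, against 214, 174, 224 and 217 RPKM in controls (-0.71 ± 0.14, adjusted p = 0.013). The groups did not overlap. Akr1b7, a reductase of the zona fasciculata, was lower (-1.15 ± 0.33, adjusted p = 0.043, lost without Znrf3 cKO library 1 or any 1 control library and on rescaling to the same sum, with adjusted p between 0.0524 and 0.109). Akr1c18, the marker of the X-zone, an inner zone of the mouse cortex, did not pass the test, and its values of 171, 9.22, 13.3 and 16.5 RPKM in Znrf3 cKO libraries, against 1.71, 13.7, 10.4 and 8.23 RPKM in controls, were set apart by 1 library.

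Ren1, which encodes renin, the protease that starts the angiotensin cascade, had the largest fall among the genes that met the naming rule. It was at 0.398, 0.796, 0.442 and 0.537 RPKM in Znrf3 cKO adrenals and at 97.4, 37.5, 29.8 and 83.1 RPKM in controls (-5.19 ± 0.35, adjusted p = 6e-05). Every Znrf3 cKO library was under 1 RPKM and every control library over 29 RPKM. The angiotensin receptor genes Agtr1a (-0.02 ± 0.12, adjusted p = 0.94) and Agtr1b (0.01 ± 0.13, adjusted p = 0.97) did not pass the test. Esr1, an oestrogen receptor, rose (0.86 ± 0.16, adjusted p = 0.0085), with 4.24, 3.197, 2.07 and 3.65 RPKM in Znrf3 cKO libraries and 1.11, 1.56, 1.38 and 1.27 RPKM in controls.

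Genes of the Wnt pathway did not move in one direction. Among 19 tested feedback genes and targets, 4 rose and 2 fell, and among 24 tested ligands, receptors and pathway components 3 rose and 1 fell, with medians of -0.02 and 0.10. These are 21.1% and 10.5% of the first list and 12.5% and 4.17% of the second, against 8.76% and 9.32% of all genes. The 4 rises of the first list include Znrf3 itself, the targeted gene. Lgr5 is in both lists, so its fall is counted in each. With 1 library left out the first list had 2 to 5 rises and 1 to 4 falls and the second 2 to 6 rises and 1 to 4 falls, each highest without Znrf3 cKO library 2. Lgr5, a receptor for R-spondins and a Wnt target in many tissues, fell to 0.359, 0.442, 0.2498 and 0.377 RPKM in Znrf3 cKO adrenals, against 6.51, 3.38, 4.48 and 3.77 RPKM in controls (-2.00 ± 0.16, adjusted p = 0.00011). Ccnd1, which encodes cyclin D1, rose to 15.7, 19.1, 20.3 and 22.4 RPKM in Znrf3 cKO adrenals, against 10.8, 9.76, 10.4 and 12.8 RPKM in controls (0.77 ± 0.12, adjusted p = 0.0038). The co-receptor Lrp5 (0.64 ± 0.12, adjusted p = 0.0086) and Ctnnb1, the gene of beta-catenin (0.54 ± 0.10, adjusted p = 0.010), rose as well. Ctnnb1 was at 93.0, 73.9, 106 and 85.7 RPKM in Znrf3 cKO libraries and at 60.7, 59.0, 59.8 and 63.2 RPKM in controls. Axin2, the usual feedback target, did not differ detectably, with 5.99, 7.28, 6.34 and 6.95 RPKM in Znrf3 cKO libraries and 5.56, 6.68, 6.49 and 6.36 RPKM in controls (0.07 ± 0.08, adjusted p = 0.57). Lef1 had a log2 fold change of -0.22 (adjusted p = 0.31). Calls for Notum (-0.61, adjusted p = 0.036) and Rnf43, the homolog of Znrf3 (0.27, adjusted p = 0.043), were each lost without any 1 of 7 libraries (adjusted p between 0.0674 and 0.109), and only the fit without Znrf3 cKO library 2 kept them.

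Dlk1, an imprinted membrane protein of the Notch ligand family known from the capsule and the medulla of the adrenal, fell to 3.90, 6.75, 3.41 and 3.99 RPKM in Znrf3 cKO adrenals, against 71.8, 50.9, 51.5 and 53.7 RPKM in controls (-3.42 ± 0.18, adjusted p = 2.8e-05). Of 17 tested genes of a list of IGF pathway and imprinted genes, 4 fell (23.5%, against 9.32% of all genes) and 0 rose. The falls were Dlk1, Cdkn1c, Igfbp7 (-0.65 ± 0.12, adjusted p = 0.0095) and Peg3 (-0.83 ± 0.16, adjusted p = 0.010), and without Znrf3 cKO library 2 the count was 8. The imprinted RNA Meg3, next to Dlk1 in the genome, was at 22.7, 79.3, 60.3 and 65.0 RPKM in Znrf3 cKO libraries and 97.4, 81.5, 90.4 and 91.7 RPKM in controls and did not pass the test (-0.79 ± 0.33, adjusted p = 0.12). Igf2 was under the level needed for testing, with at most 0.0243 RPKM in Znrf3 cKO libraries and 0.0660 RPKM in controls.

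Chromaffin genes were among the largest falls. Of 20 chromaffin genes, all tested, 19 fell (95%, against 9.32% of all genes) and 0 rose, with a median log2 fold change of -2.47. The count stayed between 18 and 20 with 1 library left out. The summed level of the list was 304.9, 626.3, 297.7 and 266.5 RPKM in Znrf3 cKO libraries and 4779, 3929, 3296 and 3915 RPKM in controls. Th, tyrosine hydroxylase, the enzyme that starts catecholamine synthesis, was at 21.1, 44.3, 29.1 and 19.8 RPKM in Znrf3 cKO adrenals and at 380, 319, 230 and 369 RPKM in controls (-3.50 ± 0.26, adjusted p = 7.9e-05). Dbh, which makes noradrenaline, was at 17.1, 23.2, 13.9 and 14.4 RPKM in Znrf3 cKO adrenals and 171, 147, 118 and 157 RPKM in controls (-3.05 ± 0.17, adjusted p = 3.3e-05). Pnmt, which turns noradrenaline into adrenaline, was at 7.91, 35.2, 10.7 and 5.71 RPKM in Znrf3 cKO adrenals and 186, 223, 197 and 184 RPKM in controls (-3.97 ± 0.44, adjusted p = 0.00066). In all 3 genes Znrf3 cKO library 2 had the highest value of its group and was still far below every control. The granule proteins Chga (-3.50), Chgb (-3.95), Scg2 (-4.31) and Scg3 (-2.91), the transcription factors Hand2 (-2.52) and Gata3 (-1.78) and the vesicular transporter Slc18a1 (-2.44) fell with them, with adjusted p of 0.00088 or lower. Outside the list, the neuroendocrine genes Resp18 (-3.25), Pcsk1 (-3.01), Scg5 (-2.84) and Slc6a4, the serotonin transporter (-2.77), were among the largest falls. Of 11 tested genes of Schwann cells and neurons 7 fell (63.6%, against 9.32% of all genes) and 0 rose, with a median of -0.74. Among them were the Schwann cell genes Sox10 (-0.74 ± 0.11, adjusted p = 0.0028) and Erbb3 (-0.78 ± 0.09, adjusted p = 0.00073) and the neuronal gene Stmn2 (-1.54 ± 0.14, adjusted p = 0.00021). Whether the chromaffin, Schwann cell and neuronal falls reflect fewer such cells or a smaller share of them in a heavier gland was not tested.

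**Figure D3:**
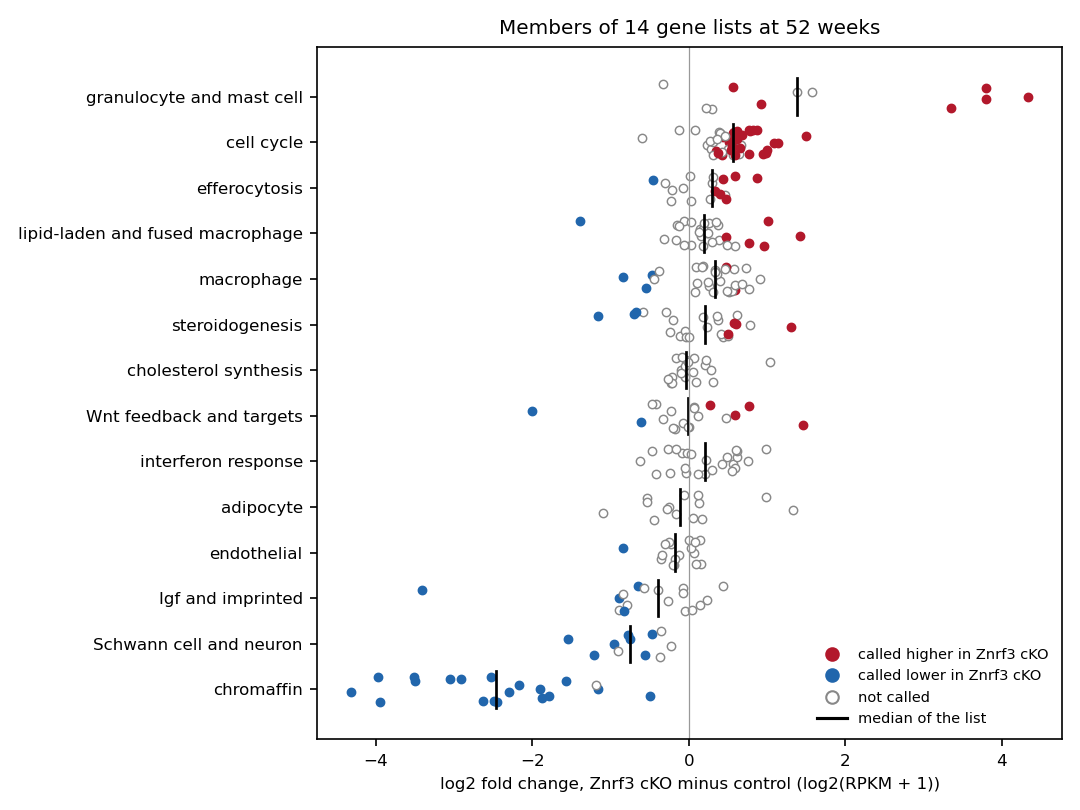
Each point is a tested member of 1 of 14 gene lists, placed by its log2 fold change (Znrf3 cKO minus control), filled in red where called higher in Znrf3 cKO, in blue where called lower and open where not called, and a black bar marks the list's median. The median is -2.47 for chromaffin genes, 0.56 for cell cycle genes and 1.38 for the granulocyte and mast cell list, and members of most other lists lie on both sides of 0.

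Genes of mast cells, which store histamine and proteases in granules and depend on KIT ligand, had the largest rises. Cma1, a chymase, was at 13.6, 48.0, 64.7 and 36.8 RPKM in Znrf3 cKO adrenals and at 0.204, 1.36, 1.17 and 0.731 RPKM in controls (4.34 ± 0.43, adjusted p = 0.00032). Cpa3, the mast cell carboxypeptidase, was at 11.5, 36.9, 52.98 and 27.4 RPKM in Znrf3 cKO adrenals and at 0.893, 1.43, 0.894 and 1.20 RPKM in controls (3.803 ± 0.38, adjusted p = 0.00034). For both genes the lowest Znrf3 cKO library was well above the highest control library. Tpsb2, a tryptase, rose to 6.91, 15.7, 22.9 and 13.8 RPKM in Znrf3 cKO adrenals, against 0.111, 0.559, 0.608 and 0.521 RPKM in controls (3.36 ± 0.30, adjusted p = 0.00019). The chymase gene Mcpt4 rose to 8.40, 27.6, 39.8 and 25.7 RPKM in Znrf3 cKO libraries, against 0.0601, 1.01, 0.849 and 0.959 RPKM in controls (3.802 ± 0.42, adjusted p = 0.00061). Tpsab1, a second tryptase, and Fcer1a, a chain of the IgE receptor, rose as well (4.14 ± 0.49, adjusted p = 0.00095, and 3.46 ± 0.49, adjusted p = 0.0024), with at least 4.63 and 3.201 RPKM in each Znrf3 cKO library and at most 0.0608 and 0.194 RPKM in any control.

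In a list of granulocyte and mast cell genes, 6 of 11 tested members rose (54.5%, against 8.76% of all genes) and 0 fell. The rises were 5 to 6 when 1 library was left out. The summed level of the list was 50, 147, 229.9 and 115.2 RPKM in Znrf3 cKO libraries and 8.64, 8.41, 8.44 and 13.5 RPKM in controls. The rises were those of mast cells. The neutrophil genes S100a8 (1.38 ± 0.46, adjusted p = 0.069) and S100a9 (1.57 ± 0.58, adjusted p = 0.090) did not pass the test, and their highest values, 12.4 and 25.9 RPKM, were both in Znrf3 cKO library 3. Kit, the receptor on mast cells and on some other cells, was at 0.838, 1.25, 1.51 and 1.19 RPKM in Znrf3 cKO adrenals and at 0.466, 0.514, 0.506 and 0.399 RPKM in controls (0.57 ± 0.10, adjusted p = 0.0082). Cma1, Cpa3, Tpsb2, Tpsab1, Mcpt4, Fcer1a and Kit all ranked the Znrf3 cKO libraries in one order, library 1 lowest, then 4, 2 and 3, with the highest library 1.80 to 9.10 times the lowest. Ms4a2, another chain of the IgE receptor, rose (0.92 ± 0.22, adjusted p = 0.025, lost without Znrf3 cKO library 4 or any 1 control library, with adjusted p between 0.0532 and 0.067), and its order differed, with library 2 just below library 4. Other genes known from mast cells did not follow them. Hdc, the enzyme that makes histamine (-0.13, adjusted p = 0.53), and the protease gene Mcpt2 (0.82 ± 0.31, adjusted p = 0.099, but 0.017 without Znrf3 cKO library 2) did not pass the test. Gata2, a transcription factor of mast cells and other lineages (-1.55 ± 0.15, adjusted p = 0.00025), and Slc18a2, the monoamine transporter that chromaffin cells also use (-1.57 ± 0.17, adjusted p = 0.00065), fell. Mrgprb2, a receptor of connective tissue mast cells named here, like Hdc, Mcpt2, Gata2 and Slc18a2, after its values were seen, also rose (1.13 ± 0.18, adjusted p = 0.0046), and its lowest and highest values were in the same libraries 1 and 3.

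Kitl, which encodes KIT ligand, rose in the same glands. It was at 14.4, 10.4, 11.8 and 14.03 RPKM in Znrf3 cKO adrenals and at 4.67, 4.34, 3.16 and 4.44 RPKM in controls (1.41 ± 0.13, adjusted p = 0.00023). Every Znrf3 cKO library had more than any control, but the order differed from that of the mast cell genes, with library 2 lowest and library 1, which had the least mast cell RNA, highest.

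Another set of large rises followed the order of the mast cell genes. Speer4e, Speer4c and Speer4d, members of a family known from the testis whose role in the adrenal is not established, were at 1.40 to 19.1 RPKM in Znrf3 cKO libraries and at 0.175 RPKM or less in controls (3.22, 2.95 and 2.71, with adjusted p between 0.0031 and 0.0075). Znrf3 cKO library 1 was again lowest and library 3 highest. Of 11 tested genes, either named Speer or predicted genes added by name, 9 rose, against 8.76% of all genes. All 9 lie within chr5:14910122-15714271 (mm10). The predicted genes were chosen by hand beside the called ones, so this count and the shared interval are no separate evidence. These genes are near-identical copies that share reads, so the value of any 1 of them is uncertain. Cd300ld3, Cd300ld4 and Cd300ld5, myeloid receptor genes that are also close copies of each other, had log2 fold changes of 1.28 to 1.33 and adjusted p of 0.023 to 0.028. They lost the call without Znrf3 cKO library 4 or control library 1, 2 or 4 (adjusted p between 0.0551 and 0.0795). Cd300ld3 and Cd300ld5 lost it without control library 3 as well (adjusted p = 0.057 and 0.0534).

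Macrophage genes changed in few members and in both directions. Of 29 tested macrophage genes, 2 rose (6.90%) and 3 fell (10.3%), against 8.76% and 9.32% of all genes. The rises were Cd68 (0.58, adjusted p = 0.038) and Cx3cr1 (0.47, adjusted p = 0.042). The change was positive in 24 of 29, with a median of 0.34, and 0 rises held when each library was left out in turn. Adgre1, which encodes the macrophage antigen F4/80, was at 2.94, 2.05, 8.24 and 3.798 RPKM in Znrf3 cKO libraries and 1.296, 1.75, 1.41 and 1.79 RPKM in controls and did not pass the test (0.91 ± 0.29, adjusted p = 0.060). It did without Znrf3 cKO library 2 (adjusted p = 0.015) and on rescaling to the same sum (adjusted p = 0.041). Lyve1, a hyaluronan receptor of lymphatic vessels and of some resident macrophages, fell to 0.440, 0.769, 0.307 and 0.221 RPKM in Znrf3 cKO adrenals, against 1.42, 1.60, 1.02 and 2.23 RPKM in controls (-0.83 ± 0.16, adjusted p = 0.011). The antigen presentation genes Cd74 (-0.47, adjusted p = 0.027) and H2-Eb1 (-0.54, adjusted p = 0.040) were lower, but each lost its call without any 1 of Znrf3 cKO libraries 1, 3 and 4 and control libraries 1, 2 and 4 (adjusted p between 0.0516 and 0.102) and on rescaling to the same sum. Of the study's list of 100 adrenal macrophage genes, 4 of 96 tested rose and 5 fell, below the share of all genes in either direction. In the study's LM22 macrophage list, 3 of 56 tested genes rose (5.36%) and 5 fell (8.93%). Its ImmuCC macrophage list had 6 of 38 higher (15.8%) and 1 lower (2.63%). The change was positive in 33 of these 38, with a median of 0.32, and 1 rise held when each library was left out in turn.

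A list of genes of lipid-laden and fused macrophages held steadier calls. Of 29 tested members 5 rose (17.2%) and 1 fell (3.45%), against 8.76% and 9.32% of all genes. With 1 library left out the rises ran from 3 to 8 (without Znrf3 cKO library 2), and 3 of them held in every fit. Gpnmb, a lysosomal glycoprotein of foamy macrophages, was at 1.53, 3.16, 1.71 and 2.66 RPKM in Znrf3 cKO adrenals and at 0.1704, 0.242, 0.153 and 0.199 RPKM in controls (1.42 ± 0.16, adjusted p = 0.00061). Lgals3, galectin-3, was at 13.8, 26.4, 16.8 and 17.4 RPKM in Znrf3 cKO libraries, against 10.8, 8.28, 7.30 and 7.88 RPKM in controls (1.01 ± 0.19, adjusted p = 0.0088). Atp6v0d2, a subunit of the vacuolar ATPase known from osteoclasts, was at 0.984, 2.28, 0.779 and 1.13 RPKM in Znrf3 cKO libraries, against 0.213, 0.131, 0.0713 and 0.183 RPKM in controls (0.96 ± 0.18, adjusted p = 0.0086). In all 3 genes Znrf3 cKO library 2, the one with most adipocyte RNA, was highest. Control library 2, also high in adipocyte RNA (1522 RPKM), had 0.242, 8.28 and 0.131 RPKM of them. A link of these genes to adipocyte RNA was not tested. Trem2, a lipid receptor of such macrophages, did not pass the test (0.35 ± 0.17, adjusted p = 0.18). Cd9, a tetraspanin found in many cell types, fell (-1.39 ± 0.14, adjusted p = 0.00032).

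Among 17 tested genes of efferocytosis, the uptake of dying cells, 6 rose (35.3%) and 1 fell (5.88%), against 8.76% and 9.32% of all genes. The rises dropped to 2 without Znrf3 cKO library 3 or 4 or control library 1 or 3. Mfge8, a bridging protein that tags dying cells, rose in every such fit, with 33.1, 33.8, 32.7 and 32.7 RPKM in Znrf3 cKO libraries and 23.6, 24.7, 24.3 and 26.4 RPKM in controls (0.40 ± 0.06, adjusted p = 0.0031). Dock1, an activator of the engulfment machinery, rose by 0.87 (adjusted p = 0.016, lost without control library 1 alone, at an adjusted p of 0.0529). The receptor gene Tyro3 fell (-0.45 ± 0.09, adjusted p = 0.012) and its relative Mertk had a log2 fold change of 0.02 (adjusted p = 0.94).

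Of 82 tested cytokine genes in the study's list, 1 rose (1.22%) and 11 fell (13.4%), against 8.76% and 9.32% of all genes. The rise was Kitl. The falls included Scg2, a granule protein listed there for a secreted peptide, Il18, a cytokine of the interleukin-1 family (-1.14 ± 0.11, adjusted p = 0.00033), and the chemokine Cxcl14 (-1.25 ± 0.23, adjusted p = 0.0087). Il18 was at 1.18, 1.62, 1.58 and 1.46 RPKM in Znrf3 cKO adrenals and at 3.49, 5.21, 4.32 and 4.77 RPKM in controls, with no overlap. The count of falls was 4 without Znrf3 cKO library 1, 3 or 4 or control library 1, 2 or 4, and 24 without Znrf3 cKO library 2. None of 25 interferon response genes was called in limma, with 2 genes at an unadjusted p under 0.05 and 0 called with precision weights. Their summed level was 1086, 1381, 3002 and 1294 RPKM in Znrf3 cKO libraries and 2301, 1969, 1964 and 1977 RPKM in controls. Among the Znrf3 cKO libraries, 1 was above and 3 were below every control. T and NK cell genes (0 of 16 higher, 1 lower), B and plasma cell genes (0 of 17 higher, 1 lower), and endothelial genes (0 of 17 higher, 1 lower) were at or under the background share of calls in both directions. So were fibroblast and capsule genes (0 of 21 higher, 1 lower) and adipocyte genes (0 of 14 in either direction, with 0 at an unadjusted p under 0.05 and 0 called with precision weights). Without Znrf3 cKO library 2, 8 of the 21 fibroblast and capsule genes fell.

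Lists of senescence genes held calls in both directions. In the SASP list of the study 2 of 33 tested genes rose and 4 fell, and in SenMayo 5 of 81 rose and 8 fell, near the 8.76% and 9.32% of all genes. In the Fridman and Tainsky list 2 of 64 rose and 12 fell (18.75%). With 1 library left out, the falls ran from 2 to 9 in the SASP list and from 6 to 17 in SenMayo, with the highest counts without Znrf3 cKO library 2. The 12 falls of the last list became 6 without Znrf3 cKO library 3 or control library 2 or 4 and 20 without Znrf3 cKO library 2. Members that moved included Cd55, a complement regulator that fell to 0.744, 1.37, 0.696 and 0.727 RPKM in Znrf3 cKO libraries, against 10.8, 8.57, 9.89 and 7.13 RPKM in controls (-2.42 ± 0.15, adjusted p = 4.4e-05). They also included Aldh1a3, a retinoic acid-producing enzyme (-1.93 ± 0.12, adjusted p = 4.4e-05), and Il6st, the shared receptor chain of interleukin-6 cytokines, which rose (0.66 ± 0.11, adjusted p = 0.0046). The cell cycle inhibitor Cdkn2a had a log2 fold change of -0.31 (adjusted p = 0.28).

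Some immediate early genes, which cells switch on within minutes of a stimulus, were lower in Znrf3 cKO adrenals. Egr1 was at 2.19, 4.54, 2.19 and 2.21 RPKM in Znrf3 cKO libraries and at 19.7, 15.1, 13.2 and 24.0 RPKM in controls (-2.34 ± 0.23, adjusted p = 0.00031). Fos was at 1.12, 1.77, 2.92 and 0.665 RPKM in Znrf3 cKO libraries, against 9.54, 11.3, 6.17 and 20.8 RPKM in controls (-2.26 ± 0.35, adjusted p = 0.0043). Their groups did not overlap. The related genes Junb (-1.16 ± 0.45, adjusted p = 0.10) and Nr4a1 (-2.01 ± 0.97, adjusted p = 0.17) did not pass the test, and both did without Znrf3 cKO library 2 (adjusted p = 0.013 and 0.029). Of 15 tested genes of that stress list 4 fell (26.7%, against 9.32% of all genes) and 0 rose. The falls ran from 2 to 8 with 1 library left out. In the hypoxia and vessel list Adm, the gene of the vasodilator adrenomedullin, fell (-1.96 ± 0.19, adjusted p = 0.00026), while the hypoxia factor Hif1a rose (0.53 ± 0.08, adjusted p = 0.0041). Timp3, an inhibitor of matrix proteases, rose to 42.0, 33.4, 46.3 and 48.0 RPKM in Znrf3 cKO adrenals, against 17.5, 20.7, 20.04 and 25.7 RPKM in controls (0.98 ± 0.14, adjusted p = 0.0027).

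**Figure D4:**
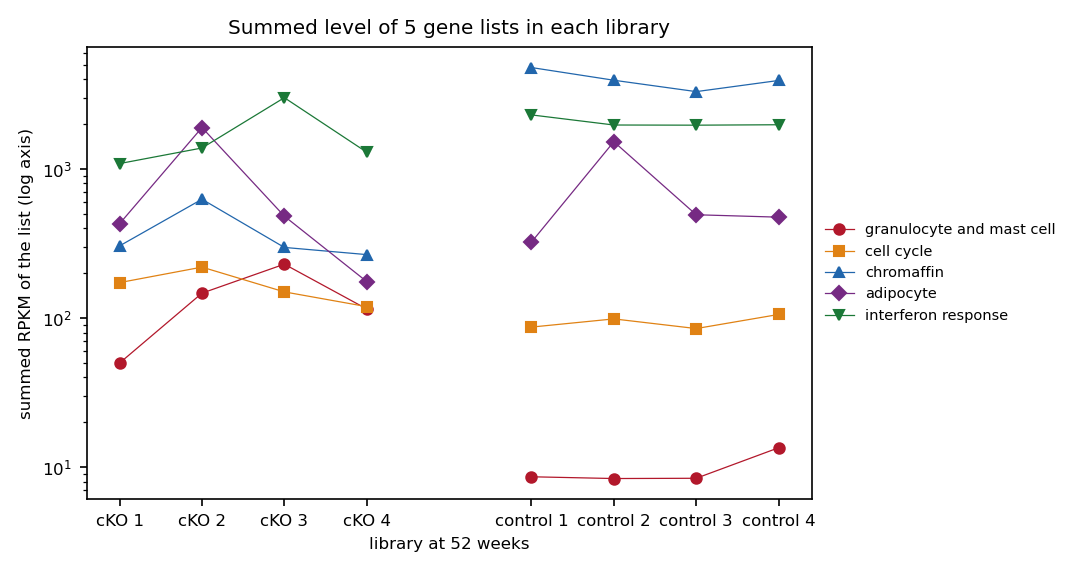
Summed RPKM (log axis) of 5 gene lists in each library, with the 4 Znrf3 cKO libraries left of the 4 controls. Granulocyte and mast cell genes run from 50 to 229.9 RPKM among Znrf3 cKO libraries, adipocyte genes peak in library 2 of both groups, and interferon response genes peak in Znrf3 cKO library 3.

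Znrf3 cKO adrenals were less alike than controls, with mean Spearman correlations to the libraries of their own group of 0.961 to 0.973, against 0.979 to 0.983 among controls, as a description across genes. Znrf3 cKO library 2 was the library nearest to the control mean in 2136 of the 3462 called genes (61.7%), against 400, 264 and 662 genes for libraries 1, 3 and 4. It also had the highest levels of Pnmt and Npy, a peptide of chromaffin cells (200 RPKM, against 54.9 to 70.3 RPKM in the other Znrf3 cKO libraries and 424 to 683 RPKM in controls). Library 1 had the lowest level of mast cell genes and the highest of Akr1c18, and library 3 the highest of mast cell, interferon and neutrophil genes. Apoc1, an apolipoprotein, varied most among the called genes that did not overlap between groups, at 54.0, 18.7, 131 and 270 RPKM in Znrf3 cKO libraries and 421, 357, 539 and 385 RPKM in controls (-2.42 ± 0.68, adjusted p = 0.042, lost without Znrf3 cKO library 1 or 3 or any 1 control library, with adjusted p between 0.061 and 0.103).

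The effect at 52 weeks was set against that at 12 weeks, the nearest younger age of the same sex, with 4 libraries of each genotype at both ages. The test took the Znrf3 cKO minus control difference at 52 weeks minus that at 12 weeks. Of 20162 genes tested, 5472 (27.1%) differed, 2480 (12.3%) towards a more positive and 2992 (14.8%) towards a more negative effect at 52 weeks. The direction of this split rested on the scaling, since rescaling to the same sum moved the median difference of all genes by 0.27 and gave 4167 more positive and 301 more negative genes (93.3% positive). At 12 weeks, control library 4 went against its label for Nr6a1, with 5.93 RPKM, against 0.951 to 1.28 RPKM in the other 3 controls and 5.27 to 11.2 RPKM in Znrf3 cKO libraries of that age, and without it 4546 genes differed. The differences named below held without it, without each of the other 15 libraries, and on rescaling, except for Gnptg, Dlk1 and the chromaffin genes.

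Mast cell genes differed between the ages. The effect on Cma1 was 3.98 ± 0.55 larger at 52 than at 12 weeks (adjusted p = 0.00078) and that on Cpa3 3.70 ± 0.49 larger (adjusted p = 0.00065). Cma1 was at 1.12 to 2.34 RPKM in Znrf3 cKO and 8.14 to 23.6 RPKM in control adrenals at 4 weeks, at 0.340 to 1.98 RPKM in Znrf3 cKO and 1.83 to 14.3 RPKM in control adrenals at 6 weeks, at 1.42 to 4.86 RPKM in Znrf3 cKO and 0.933 to 2.02 RPKM in control adrenals at 12 weeks, and at 13.6 to 64.7 RPKM in Znrf3 cKO and 0.204 to 1.36 RPKM in control adrenals at 52 weeks. In its own test at 4 weeks the gene was lower in Znrf3 cKO adrenals (-2.61, adjusted p = 0.0018), and at 6 and 12 weeks it did not pass (-1.76, adjusted p = 0.072, and 0.36, adjusted p = 0.36). Kit was higher in Znrf3 cKO adrenals already at 4 weeks (1.10, adjusted p = 0.00035), when Cma1 was lower, and its difference between 52 and 12 weeks did not pass the test (adjusted p = 0.076). The scale that ages share is not given in the sources used here, so levels at different ages stand side by side without a test.

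Kitl (1.97 ± 0.22, adjusted p = 0.00025), Mcm6 (1.44 ± 0.25, adjusted p = 0.0017), Wee1 (1.01 ± 0.12, adjusted p = 0.00027) and Ccnd1 (1.34 ± 0.20, adjusted p = 0.00099) also had more positive effects at 52 weeks. Of the 44 cell cycle genes, only 7 had a more positive effect, near the 12.3% of all genes. Mki67 (adjusted p = 0.14) and Top2a (adjusted p = 0.12) did not pass this test, but did without Znrf3 cKO library 3 of 12 weeks (adjusted p = 0.017 for each). Kitl was at 8.04 to 13.0 RPKM in Znrf3 cKO and 13.5 to 19.9 RPKM in control adrenals at 12 weeks, and at 10.4 to 14.4 RPKM in Znrf3 cKO and 3.16 to 4.67 RPKM in control adrenals at 52 weeks. Mcm6 was at 7.79 to 13.1 RPKM in Znrf3 cKO and 7.34 to 11.0 RPKM in control adrenals at 12 weeks and at 9.18 to 16.03 RPKM in Znrf3 cKO and 3.08 to 3.91 RPKM in control adrenals at 52 weeks. For both genes the Znrf3 cKO ranges of the 2 ages overlapped, and the control ranges did not. The 10 differences with the smallest p under the naming rule showed the same form in Oxr1, which protects against oxidative damage (1.40 ± 0.10, adjusted p = 1.4e-05), and Itga6, a laminin receptor subunit (1.28 ± 0.10, adjusted p = 1.6e-05). Oxr1 was at 22.5 to 25.9 RPKM in Znrf3 cKO and 33.7 to 39.0 RPKM in control adrenals at 12 weeks, and at 21.2 to 27.6 RPKM in Znrf3 cKO and 12.7 to 14.2 RPKM in control adrenals at 52 weeks. Sept10 (0.99), Sowahc (1.17) and Hif1a (0.94) had more positive effects, and Mien1 (-0.91), Sod1 (-1.01), Mrpl4 (-0.83) and Gnptg (-0.83) more negative ones, with adjusted p of 0.00022 or lower. The difference for Gnptg was not called on rescaling to the same sum (adjusted p = 0.069).

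Ren1 was high in 52-week controls alone among the female groups of 4, 6, 12 and 52 weeks. It was at 0.157 to 0.258 RPKM in Znrf3 cKO and 0.188 to 0.575 RPKM in control adrenals at 12 weeks, and the effect at 52 weeks was 5.00 ± 0.40 lower (adjusted p = 1.6e-05). At 4 weeks it was at 0.0963 to 5.51 RPKM in Znrf3 cKO and 0.199 to 1.85 RPKM in control adrenals, and at 6 weeks at 0.0149 to 3.197 RPKM in Znrf3 cKO and 0.177 to 0.501 RPKM in control adrenals. Cyp11b2 had an effect 1.43 ± 0.39 larger at 52 weeks (adjusted p = 0.017), with 489 to 712 RPKM in Znrf3 cKO and 563 to 738 RPKM in control adrenals at 12 weeks. Other genes were changed at every age. Dlk1 was lower in Znrf3 cKO adrenals at 4, 6, 12 and 52 weeks (-2.78, -2.87, -2.26 and -3.42, with adjusted p between 2.8e-05 and 0.0017), and so were Lgr5 (-1.48, -1.51, -1.53 and -2.00) and Pnmt (-3.94, -4.36, -3.15 and -3.97). The effect on Dlk1 was 1.15 ± 0.31 lower at 52 than at 12 weeks (adjusted p = 0.014, but 0.0997 on rescaling to the same sum). The difference between these ages did not pass the test for Lgr5 (adjusted p = 0.14, but 0.034 without control library 2 of 12 weeks). Nor did it for Pnmt (adjusted p = 0.27, but 0.0046 without Znrf3 cKO library 2 of 52 weeks). Of 20 chromaffin genes, 9 had a more negative effect at 52 weeks, against 14.8% of all genes. Th, Dbh, Chgb and Slc18a1 were among the 9, and none of them was called on rescaling to the same sum (adjusted p between 0.067 and 0.17).

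**Figure D5:**
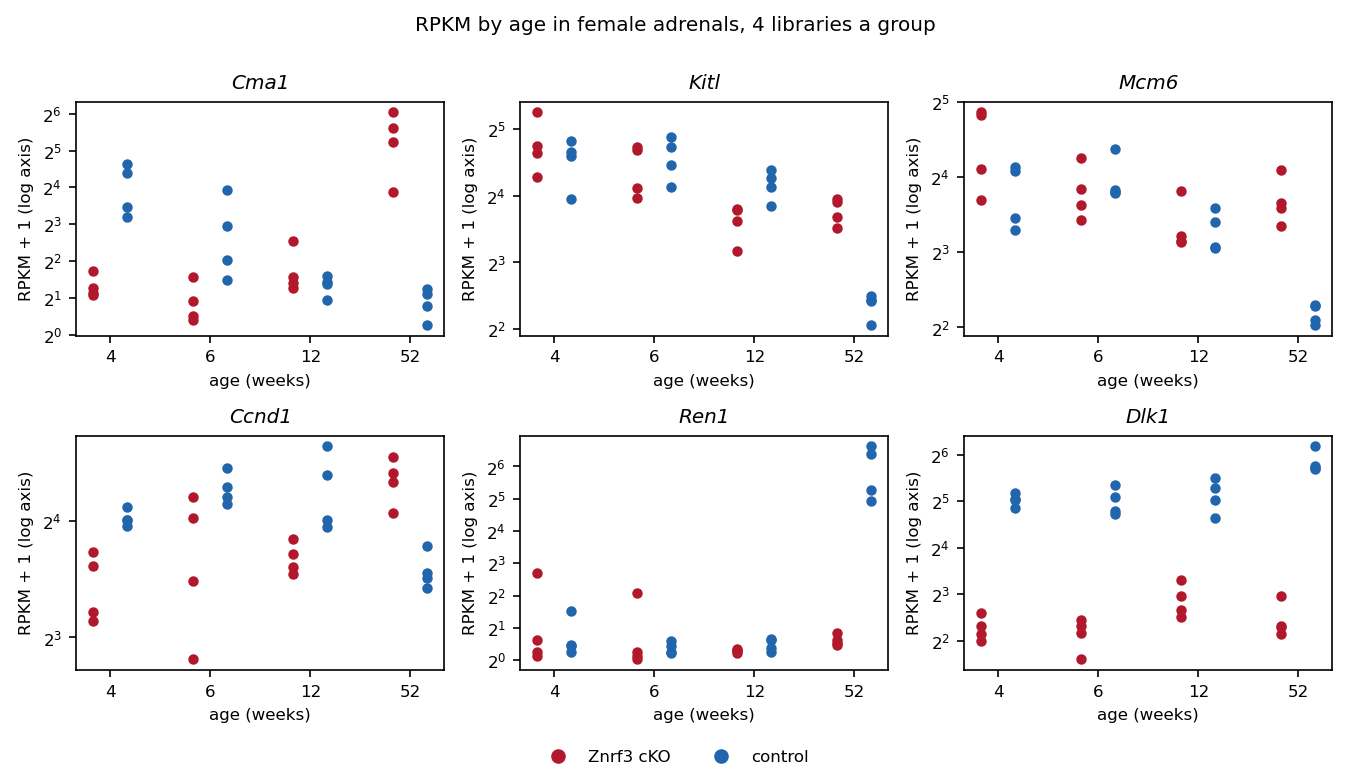
RPKM + 1 (log axis) of 6 genes in female adrenals at 4, 6, 12 and 52 weeks, with 4 Znrf3 cKO libraries (red) left of 4 controls (blue) at each age. Cma1 is lower in Znrf3 cKO at 4 weeks and higher at 52 weeks, Ren1 is high only in 52-week controls, Kitl and Mcm6 are lowest in 52-week controls, and Dlk1 is lower in Znrf3 cKO at each age.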

How the data were processed

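Total RNA (NucleoSpin RNA) from mouse adrenals was made into libraries with the TruSeq Stranded mRNA kit from 300 ng and sequenced in single 50-base reads on an Illumina HiSeq instrument. Per the labels and the study's methods, the authors trimmed reads with cutadapt 3.2, aligned them to mm10 with HISAT2 2.2.1, counted reads per gene with SummarizeOverlaps and deposited RPKM, that is, reads per kilobase of transcript scaled for library depth. Median-of-ratios factors over the 8 libraries at 52 weeks were exactly 1, so their depth scaling was of that kind and not by total reads, and it assumes that most genes do not differ. The gene model used for lengths and the sequencing batches are not given in the sources used here. The counts tested by the authors with DESeq2 1.34.0 were not used here.

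Here, genes averaging at least 0.5 RPKM in a compared group were tested on log2(RPKM + 1) with limma 3.58.1 (R 4.3.3, empirical Bayes with a trend, Benjamini-Hochberg over all genes tested, threshold 0.05, 2-sided), with Znrf3 cKO and control libraries of XX mice at 52 weeks in the main comparison and those of 52 and 12 weeks in the interaction. The fit was tested on simulated data, in which 98% and 100% of genes changed to 0.25 and 4 times, and 58% and 76% of genes changed to 0.5 and 2 times, were recovered (18340 genes in that step, with 20 false calls). The simulation gave every gene the same dispersion and set no library apart, unlike the real libraries. These shares are therefore not the power of the real comparison. Named genes were Znrf3, members of fixed lists, the 20 largest rises and falls and the 10 smallest interaction p-values among called genes with at least 5 RPKM and no overlap, and the called genes with the largest spread among Znrf3 cKO libraries. Members and lists were chosen with earlier results of these data known. Several lists were taken from the study, which may have chosen them on these samples, and they are no independent evidence. All 32 written and 14 study lists were run, and the text describes only some of them.

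In 15 rows the symbol had become a date and was restored from the gene identifier. The values hold whole reads, since 99.2% to 99.4% of values worth under 20 reads per library lay within 0.05 of a whole number, and limma with precision weights was run on these reads, an alternative chosen after seeing the data. The number of columns without a sample was 0. Other alternatives were pseudocounts, filters, rescaling, fits over more groups, quality weights and each library left out. Promoters were read from RefSeq (GRCm38.p6). Columns labelled as XX Znrf3 cKO at 78 weeks repeat XY values and were left out of the fit over all XX groups. Some items withheld for evaluation are not reported here.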

Additional observations from a re-analysis of the deposited data

Results flagged for a closer look

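In 260 groups of 4 libraries of the genes named here, 20 (7.69%) had 1 library set apart from the other 3 by more than the 95% limit of Dixon's test. Chance sets apart about 1 in 20 independent groups. The genes here were named partly for their values and many move together, so 7.69% cannot be judged against that rate. Znrf3 cKO library 2 was the one set apart in 9 of the 20, high in each. These were 35.2 RPKM for Pnmt (5.71 to 10.7 RPKM in the other Znrf3 cKO libraries), 166 for Chga (67.9 to 83.6), 200.1 for Npy (54.9 to 70.3), 11.8 for Resp18 (5.95 to 6.76), 22.3 for Cd9 (16.2 to 17.1), 4.54 for Egr1 (2.19 to 2.21), 1.37 for Cd55 (0.696 to 0.744), 10.5 for Junb (2.79 to 2.91) and 11.9 for Nr6a1 (5.80 to 6.19). For the first 7 of these genes, which were lower in Znrf3 cKO adrenals, it was the Znrf3 cKO library nearest to the controls. Znrf3 cKO library 1 had 171 RPKM for Akr1c18 (9.22 to 16.5 in the others), and Znrf3 cKO library 3 had 2.24 RPKM for Scg5 (2.96 to 3.08). Among controls, library 1 was high for Dlk1 (71.8 RPKM, against 50.9 to 53.7), Scg3 (18.3, against 13.1 to 13.4) and Trem2 (1.84, against 1.195 to 1.28) and low for Mcpt4 (0.0601, against 0.849 to 1.01) and Sowahc (5.45, against 6.18 to 6.26). Control library 2 had 1.82 RPKM for Notum (1.57 to 1.59), library 3 had 1.61 for Lef1 (0.978 to 1.07) and 8.36 for Itga6 (9.39 to 9.54), and library 4 had 16.7 for Gnptg (17.6 to 17.7).

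The Znrf3 cKO effect at 52 weeks differed from that at 12 weeks, by the interaction term in limma, in the 18 genes that follow. On the log2 scale, 52 minus 12 weeks, the difference was 3.98 for Cma1, 3.70 for Cpa3, 1.97 for Kitl, 1.44 for Mcm6, 1.43 for Cyp11b2, 1.40 for Oxr1, 1.34 for Ccnd1, 1.28 for Itga6, 1.17 for Sowahc, 1.01 for Wee1, 0.99 for Sept10 and 0.94 for Hif1a. It was -5.00 for Ren1, -1.15 for Dlk1, -1.01 for Sod1, -0.91 for Mien1, -0.83 for Mrpl4 and -0.83 for Gnptg. The cause of these differences was not tested.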

How the results depend on the processing

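Of 3462 genes called at 52 weeks (1678 higher and 1784 lower in Znrf3 cKO adrenals), 1 fit over all XX groups gave 5275 (2792 higher, 2483 lower) and array quality weights gave 6255 (3276 higher, 2979 lower). A further limit of 1 on the size of the log2 difference left 400 (68 higher, 332 lower), and for the difference between 52 and 12 weeks 415 of 5472. Rescaling to the same sum gave 3710 higher and 1245 lower genes, and the absence of a filter on low values, with 37745 genes tested, gave 1046 higher and 1652 lower. Leaving out 1 library gave 1536 to 6839 called genes, 588 to 3605 higher and 948 to 3234 lower, and 4276 to 7423 for the difference between ages. A pseudocount of 0.1, a filter at 2 RPKM and a fit without a trend gave 3431, 2718 and 3462 called genes. Precision weights on recovered reads, chosen after seeing the data, gave 3642, of which 3242 were shared with the 3462. Median-of-ratios factors were exactly 1 in the 8 libraries and changed no call at 52 weeks. Among genes named with a difference at 52 weeks, no value changed sign under any of these settings while called. Without a filter, the calls for Nr5a1, Cyp11b2, Akr1b7, Notum, Rnf43, Cd68, Cx3cr1, Cd74, H2-Eb1, Apoc1, Ms4a2, C3ar1, C5ar1 and Cd300ld3 to Cd300ld5 were lost. In 1 fit over all XX groups, those for Mki67, Akr1b7, Rnf43, Cd68, Cx3cr1, Cd74, H2-Eb1, Apoc1 and Krt18 were lost, and with array quality weights that for C5ar1. The cause of these differences was not tested. No paired analysis was possible because the labels give no replicate numbers, and those used here only name the libraries. A gene below 0.5 RPKM in both groups was not tested, and low values rest on few reads.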

Other observations

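Other gene groups held at most 5 calls in a direction. Of 21 ribosomal protein genes, 4 rose in Znrf3 cKO adrenals (19.05%, against 8.76% of all genes) and 0 fell, with a median log2 fold change of 0.07, and with 1 library left out the count was 1 to 4. Rplp0, a protein of the ribosomal stalk, was at 398, 418, 361 and 344 RPKM in Znrf3 cKO libraries and at 266, 310, 281 and 283 RPKM in controls (0.41 ± 0.09, adjusted p = 0.015, lost without control library 1, at an adjusted p of 0.0529). Of 24 tested genes of oxidative phosphorylation, 5 rose (20.8%) and 1 fell (4.17%), against 8.76% and 9.32% of all genes. With 1 library left out the rises ran from 1 to 6. Sdha, a subunit of succinate dehydrogenase, was at 133, 99.3, 134 and 113 RPKM in Znrf3 cKO libraries and at 75.0, 83.5, 96.7 and 85.1 RPKM in controls (0.49 ± 0.12, adjusted p = 0.025, lost without Znrf3 cKO library 1 or 3 or control library 1, 2 or 4, with adjusted p between 0.064 and 0.0758). Neither gene overlapped between the groups, although Znrf3 cKO library 2 and control library 3 were close for Sdha.

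Of 15 tested complement genes, 2 rose (13.3%, against 8.76% of all genes) and 0 fell. The rises were the receptor genes C3ar1 (0.74 ± 0.17, adjusted p = 0.021) and C5ar1 (0.48 ± 0.13, adjusted p = 0.039), and 0 rises held in every fit with 1 library left out. Of 12 tested genes known from gonadal cells, 1 rose (8.33%), which was Esr1, and 0 fell. Gata4, the factor of gonadal-like cells in the adrenal, had a log2 fold change of -0.33 (adjusted p = 0.53). Of 22 tested genes of epithelial-mesenchymal transition and invasion, 1 rose (Timp3) and 1 fell (Krt18, which was under 0.7 RPKM in each of the 8 libraries and was not tested without control library 2 or 3, since it then averaged under 0.5 RPKM). Red cell genes summed to 1013, 199, 1662 and 483 RPKM in Znrf3 cKO libraries and to 483, 551, 1432 and 921 RPKM in controls, with 0 of 7 called.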
